A study of Mus musculus with 4 samples.

Results

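Markers of supporting cell (SC) subtypes in the neonatal mouse cochlea were examined in Lgr5+ and Lgr6+ progenitors. They were 7 genes taken by their symbols, out of 23997 genes in the deposited table. No cutoff on their values was used, but they were chosen with earlier results of these data known. *Prox1* and *Ngfr* were grouped as lateral markers, and *Slc1a3*, *Fabp7*, *Epyc*, *Crym* and *Calb1* as markers of medial SCs or of the greater epithelial ridge (GER). The cells were EGFP+ cells obtained by FACS from P3 cochleae of Lgr5-EGFP-IRES-creERT2 mice or of Lgr6-EGFP-IRES-CreERT2 mice, whose strain is given as C57BL/6 for all libraries. In both lines EGFP is expressed from the *Lgr* gene that names the line. In the study's description of the reporters, Lgr5 reporter cells included inner pillar cells, inner phalangeal cells, Deiters' cells of the third row and the lateral GER, whereas Lgr6 reporter cells were a subset of inner pillar cells. The study saw Lgr6 only in the basal and middle turns, whereas the Lgr5 pattern was alike along the duct. Differences by SC subtype and by position along the duct thus cannot be told apart here. Of the 4 libraries in the sample labels 2 belong to each population, and the methods describe fractions of a single RNA extract per population, so such replicates are technical.

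The organ of Corti is a mosaic of hair cells (HCs) and SCs. Pillar cells form the tunnel between inner and outer HCs, Deiters' cells hold the outer HCs on the lateral side, and inner phalangeal and border cells surround the inner HCs on the medial side. Medial to these lies the GER, a transient columnar epithelium that secretes tectorial membrane proteins around birth. SC subtypes keep different transcription factors, transporters and matrix proteins, and such genes are used to tell the subtypes apart. Most of them are also expressed by other cells of the ear. *Ngfr*, *Fabp7* and *Slc1a3* are known in glia, *Slc1a3* and *Crym* in fibrocytes, *Calb1* in HCs and neurons and *Prox1* in neurons.

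The authors deposited 1 FPKM value (fragments per kilobase of transcript, scaled to the number of mapped fragments) for each gene in each population, with the replicates already combined. Single libraries were not analysed here. The differences below therefore have no replicate check and no *p*-value. FPKM is a value per transcript length, so levels can also be compared between genes. The log2 change of a gene is log2(FPKM + 1) in Lgr6+ progenitors minus the same in Lgr5+ progenitors. It is positive for genes higher in Lgr6+ progenitors, and the added 1 makes the change of low genes smaller. A gene was kept if its FPKM reached 1 in either population, which left 13436 genes including all 7 markers. *Ngfr* was kept only through its Lgr5+ value. Such a gene, with an FPKM under 1 in the other population, has its direction set by the filter, and 712 genes were kept only through Lgr5+ and 1547 only through Lgr6+ progenitors. In tissue sorted in bulk, fewer cells of a type and less RNA per cell cannot be told apart. The mRNAs of the sorting genes did not separate the populations in the order of their names. *Lgr5* had an FPKM of 9.65 in Lgr5+ and 25.0 in Lgr6+ progenitors, and *Lgr6* had 2.06 and 2.90. The general SC genes *Sox2*, *Sox9*, *Sox10*, *Jag1*, *Gjb2* and *Gjb6* were present in both populations, the lowest of these values being the FPKM of 37.1 of *Sox9* in Lgr6+ progenitors.

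Of the 5 medial or GER markers, 4 passed 1.5-fold toward Lgr6+ progenitors, namely *Calb1*, *Epyc*, *Fabp7* and *Slc1a3*, while *Crym* was lower. Both lateral markers had the lower value in Lgr6+ progenitors, *Ngfr* by more than 1.5-fold and *Prox1* by less. Among all kept genes, 28.5% passed 1.5-fold toward Lgr6+ progenitors and 23.3% toward Lgr5+ progenitors. Of the genes past 1.5-fold, 55.0% were higher in Lgr6+ progenitors, or 69.0% when each population was scaled to the same sum of FPKM. At 2-fold the shares of kept genes were 18.2% and 11.7%, and the same 4 medial markers and *Crym* passed. The median log2 change was 1.62 over the 5 medial markers, -0.70 over the 2 lateral markers and 0.03 over all kept genes. The medial group was thus not uniform, and its median hides a marker that went the other way.

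**Figure D1:**
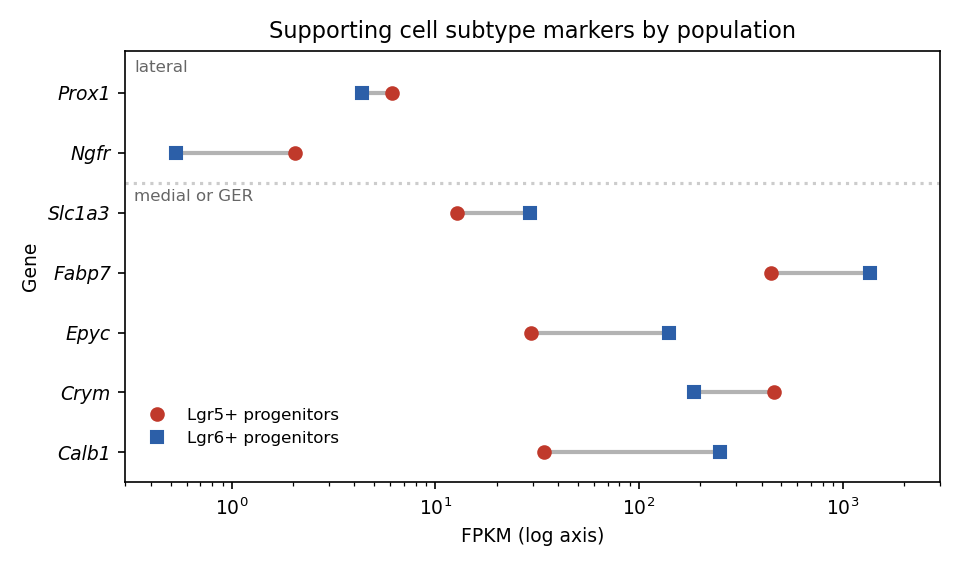
FPKM of each marker (log axis) in Lgr5+ progenitors (red circles) and Lgr6+ progenitors (blue squares), 1 combined value per population and hence no error bars; the grey bar joins the values of a gene. *Slc1a3*, *Fabp7*, *Epyc* and *Calb1* lie further right in Lgr6+ progenitors, and *Prox1*, *Ngfr* and *Crym* lie further left.

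*Prox1* encodes a homeodomain transcription factor found in the nuclei of pillar and Deiters' cells. The table places it on chromosome 1 from 190121777 to 190170680, and its positions, here and for the other genes, are those of build GRCm38. Its FPKM was 6.12 in Lgr5+ and 4.38 in Lgr6+ progenitors, a ratio of 1.40 toward Lgr5+ progenitors and a log2 change of -0.41. *Prox1* was thus present in both populations, and the difference was within 1.5-fold. RefSeq places the antisense gene *Prox1os* over 532 bases of *Prox1*, and the library kit does not mark strand, so reads from that stretch cannot be assigned to either gene.

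*Ngfr* encodes the p75 neurotrophin receptor, which is used as a marker of pillar cells. It lies on chromosome 11 from 95568821 to 95587698. Its FPKM was 2.04 in Lgr5+ but 0.531 in Lgr6+ progenitors, which is a ratio of 3.84 and a log2 change of -0.99. It was the lowest of the 7 markers in both populations. In Lgr6+ progenitors 3.48% of the kept genes had a lower FPKM than *Ngfr*. The filter limits this share, since only 712 of the 13436 kept genes were under an FPKM of 1 there. Of the populations compared, the one sorted through a reporter of inner pillar cells therefore had the lower *Ngfr* value.

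*Calb1* encodes calbindin, a cytosolic calcium buffer found in the neonatal GER and in HCs. It lies on chromosome 4 from 15881264 to 15906709. Its FPKM was 34.1 in Lgr5+ and 249.7 in Lgr6+ progenitors, a ratio of 7.32 and a log2 change of 2.84. This was the largest change among the 7 markers, and 199 of the kept genes, *Calb1* included, changed at least as far in that direction. *Calb1* moved from rank 2719 among the kept genes in Lgr5+ progenitors to rank 409 in Lgr6+ progenitors.

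*Epyc* encodes epiphycan, a small leucine-rich proteoglycan of the extracellular matrix. Its FPKM was 29.3 in Lgr5+ and 141 in Lgr6+ progenitors, a ratio of 4.80 and a log2 change of 2.22. The table places *Epyc* on chromosome 10 from 97644068 to 97967090, whereas RefSeq ends the gene at 97681908. The longer interval is shared with the long noncoding RNA *Gm10754* and with *Ccer1*. *Gm10754* overlaps the last 495 bases of *Epyc* in RefSeq, and it had FPKM values of 50.9 and 140.0, a log2 change of 1.44. How fragments of the overlap were divided between both genes was not tested, so the level of *Epyc* is less certain than those of the other markers. *Ccer1* was listed at 0 in both populations.

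*Fabp7* encodes brain lipid-binding protein, a fatty acid carrier of inner phalangeal and border cells and of radial glia. It lies on chromosome 10 from 57784923 to 57788450. Its FPKM was 446 in Lgr5+ and 1370.4 in Lgr6+ progenitors, a ratio of 3.08 and a log2 change of 1.62. *Fabp7* was already an abundant transcript in Lgr5+ progenitors, at rank 299, and reached rank 61 in Lgr6+ progenitors. The difference of 925 FPKM was the largest of the 7 markers on the linear scale. *Slc1a3* encodes the glutamate transporter GLAST, which clears glutamate around the inner HCs. It lies on chromosome 15 from 8634124 to 8710807, and its FPKM was 12.8 in Lgr5+ and 29.2 in Lgr6+ progenitors, a ratio of 2.28 and a log2 change of 1.13. Of the 4 medial markers higher in Lgr6+ progenitors, it had the lowest level and the smallest change.

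*Crym* encodes mu-crystallin, a cytosolic protein that binds thyroid hormone. It lies on chromosome 7 from 120186384 to 120201988. Its FPKM was 462 in Lgr5+ and 187 in Lgr6+ progenitors, a ratio of 2.47 toward Lgr5+ progenitors and a log2 change of -1.30. *Crym* was the highest of the 7 markers in Lgr5+ progenitors and the third in Lgr6+ progenitors, behind *Fabp7* and *Calb1*.

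The order of the markers differed accordingly. In Lgr5+ progenitors it ran from *Crym* and *Fabp7*, which were close at 462 and 446, through *Calb1*, *Epyc*, *Slc1a3* and *Prox1* to *Ngfr*. In Lgr6+ progenitors it ran from *Fabp7* through *Calb1*, *Crym*, *Epyc*, *Slc1a3* and *Prox1* to *Ngfr*. Without values of single libraries, it cannot be said which neighbours in either order differ beyond the replicate spread. *Crym* made up 46.5% of the summed FPKM of the 7 markers in Lgr5+ progenitors and 9.43% in Lgr6+ progenitors, while *Fabp7* went from 44.9% to 69.2% and *Calb1* from 3.44% to 12.6%. A ratio of genes within a population does not change when all values of that population are multiplied by the same factor. Quantile normalization can change it. For each *Crym* FPKM there were 0.966 of *Fabp7* in Lgr5+ and 7.33 in Lgr6+ progenitors. The *Calb1* ratio to *Crym* was 0.0739 in Lgr5+ and 1.34 in Lgr6+ progenitors. Relative to the lateral marker *Prox1*, *Calb1* was 5.57 times as high in Lgr5+ and 57.1 times as high in Lgr6+ progenitors. The ratio of *Fabp7* to *Slc1a3*, both markers of the cells around inner HCs, was closer between the populations, at 34.8 and 46.9.

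Sequences upstream of the markers are shown because 3 of the medial markers that were higher in Lgr6+ progenitors, and the lateral marker *Ngfr* that was lower, can be set side by side. They are the 250 bases before the RefSeq gene start in build GRCm38.p6, read 5′ to 3′ on the strand of the gene. The RefSeq promoter table had such a sequence for 5 of the 7 markers, and *Calb1* and *Crym* were not among them. *Slc1a3* is on the minus strand (chr15:8710808-8711057), *Fabp7* on the plus strand (chr10:57784673-57784922), *Epyc* on the plus strand (chr10:97643818-97644067) and *Ngfr* on the minus strand (chr11:95587699-95587948). Capitals mark the letters of any searched motif on either strand. The TCF/LEF motif was searched as CTTTGAT and the motif of the Notch factor RBPJ as TGGGAA. The motif of SOX factors was searched as ACAATG and the E-box of basic helix-loop-helix factors as CAGNTG. The TATA box was searched as TATAAA, and the box bound by NF-Y was searched as CCAAT.
*Slc1a3*: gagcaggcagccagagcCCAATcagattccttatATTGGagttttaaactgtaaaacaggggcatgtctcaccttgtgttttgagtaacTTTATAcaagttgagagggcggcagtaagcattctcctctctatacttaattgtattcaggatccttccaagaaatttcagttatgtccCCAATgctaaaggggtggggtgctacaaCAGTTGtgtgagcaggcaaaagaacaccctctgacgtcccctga
*Fabp7*: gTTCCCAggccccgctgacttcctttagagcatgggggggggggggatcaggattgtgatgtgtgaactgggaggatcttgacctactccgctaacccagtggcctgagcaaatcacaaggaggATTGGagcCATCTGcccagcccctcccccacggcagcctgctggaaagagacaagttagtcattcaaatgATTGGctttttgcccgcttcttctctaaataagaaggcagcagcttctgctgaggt
*Epyc*: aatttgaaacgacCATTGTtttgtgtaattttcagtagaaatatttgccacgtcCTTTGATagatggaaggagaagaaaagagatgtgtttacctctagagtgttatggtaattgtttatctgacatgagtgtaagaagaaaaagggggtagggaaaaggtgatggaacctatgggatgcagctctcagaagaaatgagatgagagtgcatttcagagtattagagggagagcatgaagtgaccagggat
*Ngfr*: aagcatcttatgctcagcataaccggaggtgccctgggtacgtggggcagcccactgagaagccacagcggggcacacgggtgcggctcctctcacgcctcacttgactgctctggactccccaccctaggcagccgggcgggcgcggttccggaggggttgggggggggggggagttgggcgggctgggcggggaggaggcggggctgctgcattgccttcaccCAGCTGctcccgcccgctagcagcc

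The available medial sequences were poorer in G and C than the lateral ones. The medial markers *Calb1* and *Crym* are missing from this comparison, and the G and C share of all promoters was not computed. G and C made up 39.2% of the *Epyc*, 44.8% of the *Slc1a3* and 54.8% of the *Fabp7* sequence, against 64.8% for *Prox1* and 70.4% for *Ngfr*. *Slc1a3* held CCAAT at 3 places and *Fabp7* at 2, and *Epyc* and *Ngfr* held none. CCAAT was present in 33.8% of all 32851 promoters of the table at this length. *Epyc* was the only one of the 5 with CTTTGAT, from 196 to 190 bases before its start, a motif present in 3.21% of all promoters. It also held ACAATG, which 10.7% of all promoters held. *Fabp7* held TGGGAA (21.6% of all promoters) at the far end of the stretch. An E-box was present in *Prox1*, *Ngfr*, *Slc1a3* and *Fabp7* and in 44.8% of all promoters. TATAAA was present in *Prox1* and *Slc1a3* and in 12.4% of all promoters. These matches describe letters in a short window and were not tested for use by any factor.

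In place of a replicate error, the markers can be set beside the scatter of kept genes at the same level, taken as the geometric mean of FPKM + 1 less 1. This scatter holds real differences as well as noise and is no test. At levels below 5, where *Ngfr* lay, 68.3% of 4613 genes differed by at least 1.5-fold and the median size of the log2 change was 0.99, as large as that of *Ngfr*. These levels include genes kept through 1 population only, such as *Ngfr*, whose change is partly set by the filter. At levels of 5 to 20 the median size was 0.56 over 4781 genes, which was more than that of *Prox1*. The central 90% of those genes ran from -1.35 to 1.65, and *Slc1a3* lay within it. At levels of 20 to 100 the central 90% of 3051 genes ran from -1.17 to 1.17, and *Epyc* and *Calb1* lay far above it. At levels of 100 and over the central 90% of 991 genes ran from -1.21 to 0.68. *Fabp7* lay above this range and *Crym* just below it. *Fabp7*, *Epyc*, *Calb1* and, narrowly, *Crym* thus stood outside the bulk of genes of like level, and *Prox1*, *Ngfr* and *Slc1a3* did not.

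**Figure D2:**
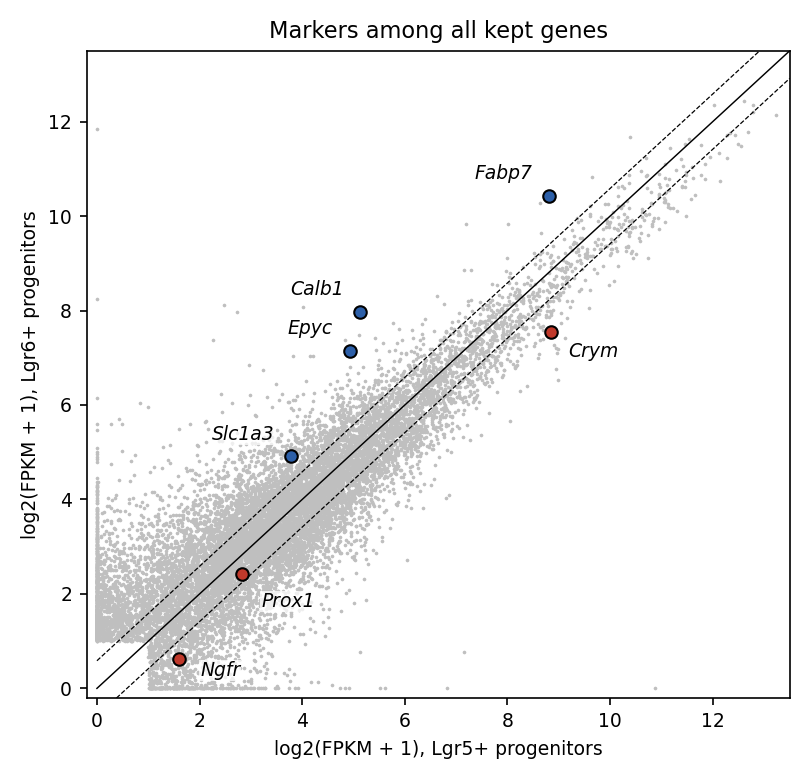
log2(FPKM + 1) of the 13436 kept genes (grey) in Lgr5+ progenitors (x axis) and Lgr6+ progenitors (y axis), with the 7 markers as large circles, blue where higher in Lgr6+ and red where higher in Lgr5+ progenitors. The solid line marks equal values and the dashed lines a 1.5-fold difference; *Calb1*, *Epyc* and *Fabp7* lie above the cloud, *Crym* lies at its lower edge, and *Prox1* lies between the dashed lines.

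Other genes of the same SC subtypes were counted in the same way. Of 7 further genes of inner phalangeal cells or the GER, none was at least 1.5-fold higher in Lgr6+ progenitors, 2 passed 1.5-fold toward Lgr5+ progenitors, near the 23.3% of all kept genes, and the median log2 change was -0.26. *Clu*, which encodes the secreted chaperone clusterin, had an FPKM of 1513 in Lgr5+ and 743 in Lgr6+ progenitors, with a log2 change of -1.03. *Fst*, which encodes the activin antagonist follistatin, had 14.4 and 3.26, a log2 change of -1.85. The tectorial membrane gene *Tecta* had 406 and 271, a log2 change of -0.58 that lay just inside the threshold. *Crabp1*, a retinoic acid-binding protein gene of the GER, had 107 and 102. *Otog*, which encodes the tectorial membrane protein otogelin, was the 1 gene of the list with the higher value in Lgr6+ progenitors, at 61.0 and 73.2.

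Of 8 further genes of pillar and Deiters' cells, none was at least 1.5-fold higher in Lgr6+ progenitors and 3 passed 1.5-fold toward Lgr5+ progenitors, with a median log2 change of -0.41. Over all kept genes the shares were 28.5% and 23.3%. The 3 genes were the Notch effector genes *Hes5* and *Hey2* and the hyaluronan receptor gene *Cd44*, which had FPKM values of 16.2 and 9.37. *Fgfr3*, the FGF receptor gene required for pillar cell development, had 82.5 in Lgr5+ and 66.1 in Lgr6+ progenitors. *S100a1*, a calcium-binding protein gene of Deiters' and pillar cells, had 2959 and 3177. The other 5 of the 8 genes differed by less than 1.5-fold, as did *Prox1* and 48.2% of all kept genes. Of 8 genes of SCs in general, 3 passed 1.5-fold toward Lgr5+ progenitors, *Sox2*, *Hes1* and *Jag1*, and 1 was at least 1.5-fold higher in Lgr6+ progenitors, *Lfng*, with FPKM values of 9.96 and 17.4.

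Genes related to each marker by protein family or pathway were counted from lists, beginning with the relatives of *Calb1*. Of 4 kept EF-hand calcium buffer genes, 3 passed 1.5-fold toward Lgr6+ progenitors, *Calb2*, *Ocm* and *S100g*, of which *S100g* was kept only through Lgr6+ progenitors. For this and the following lists, the shares over all kept genes were 28.5% toward Lgr6+ and 23.3% toward Lgr5+ progenitors. *Calb2*, which encodes calretinin, had an FPKM of 27.6 in Lgr5+ and 165 in Lgr6+ progenitors, with a log2 change of 2.54. *Ocm*, which encodes the outer HC protein oncomodulin, had 15.3 and 268, a log2 change of 4.05. *S100g* was listed at 0 in Lgr5+ progenitors and at 17.3 in Lgr6+ progenitors, but the table gives it an interval on chromosome X from 162407200 to 163352564, far longer than a small gene, so this value is uncertain. The abundant *Pvalb*, which encodes parvalbumin, had 477 and 408, which differed by less than 1.5-fold.

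For *Crym*, which binds thyroid hormone inside the cell, the related genes were hormone receptors, transporters and deiodinases. Of 5 kept genes, 3 passed 1.5-fold toward Lgr5+ progenitors, as *Crym* and 23.3% of all kept genes did. *Thrb*, the thyroid hormone receptor gene needed for hearing, had an FPKM of 28.1 in Lgr5+ and 13.3 in Lgr6+ progenitors, with a log2 change of -1.02. The transporter gene *Slc16a10* had 11.4 and 2.02. The other receptor gene, *Thra*, had 18.5 and 14.6. *Ttr*, the gene of the hormone carrier transthyretin, had 17.7 and 30.7, in the other direction. The deiodinase gene *Dio1* was listed at 0 in both populations, and *Dio2* and *Dio3* were under an FPKM of 1 in both.

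For *Ngfr*, the related genes were neurotrophins, their receptors and partners of p75. Of 7 kept genes, 3 passed 1.5-fold toward Lgr6+ progenitors and 2 toward Lgr5+ progenitors. Of these, 2 were kept only through Lgr6+ progenitors, *Ntrk3* and *Lingo1*. The neurotrophin genes went in different directions. *Ntf3* had an FPKM of 139.8 in Lgr5+ and 66.1 in Lgr6+ progenitors, with a log2 change of -1.07, whereas *Bdnf* had 9.29 and 38.7, a log2 change of 1.95. *Ntrk3*, the gene of the NT-3 receptor, was listed at 0 in Lgr5+ progenitors and at 7.62 in Lgr6+ progenitors. The p75 coreceptor gene *Sort1* had 8.80 and 5.08, a log2 change of -0.69, the same direction as *Ngfr*. *Maged1*, which encodes a p75-binding protein, had 238 and 173, *Lingo1* had 0.579 and 1.95, and *Sorcs2* had 1.22 and 1.74.

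Of 5 kept genes of lipid- and retinoid-binding proteins, *Pmp2* was at least 1.5-fold higher in Lgr6+ progenitors, at an FPKM of 1.13 against 0, and was kept only through that value, while *Fabp3* and *Crabp2* passed 1.5-fold toward Lgr5+ progenitors. *Crabp2* had an FPKM of 304 in Lgr5+ and 77.7 in Lgr6+ progenitors, *Fabp3* had 22.1 and 8.60, and *Fabp5* had 81.2 and 65.3. Of the glutamate transporter family, *Slc1a2* had 1.92 and 1.83, *Slc1a4* had 12.5 and 11.4, and the neutral amino acid transporter gene *Slc1a5* had 3.25 and 8.65. The glutamine synthetase gene *Glul* had 15.6 and 11.5.

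Of 8 kept genes of proteoglycans related to *Epyc*, 4 passed 1.5-fold toward Lgr6+ progenitors and 2 toward Lgr5+ progenitors. The most abundant were the neighbours of *Epyc* on chromosome 10. *Lum*, which encodes lumican, had an FPKM of 179 in Lgr5+ and 101 in Lgr6+ progenitors, with a log2 change of -0.82. *Dcn*, which encodes decorin, had 91.8 and 74.9. Neither went in the direction of *Epyc*. *Bgn*, which encodes biglycan, had 6.47 and 16.4. *Optc* was listed at 0 and 1.78, and *Prelp* at 2.47 and 0. *Optc* and *Aspn* were kept only through Lgr6+ and *Prelp* only through Lgr5+ progenitors, so 3 of the 6 genes past the threshold had their direction set by the filter. *Ogn* had 5.72 and 9.74, *Aspn* had 0.131 and 1.20 and *Omd* had 3.04 and 3.49, and these 3 genes share 1 interval in the table. For *Prox1*, the list held its paralog, FGF genes of the organ of Corti and 2 other genes, and 3 of 5 kept genes passed 1.5-fold toward Lgr6+ progenitors, of which *Prox2* and *Fgf20* were kept only through that population. *Fgf8*, the FGF gene of inner HCs, had 25.1 in Lgr5+ and 69.9 in Lgr6+ progenitors, *Fgf20* had 0.956 and 13.8, and the receptor gene *Fgfr1* had 41.3 and 29.95. The paralog *Prox2* had 0.359 and 2.00, and *Kif26b* had 1.19 and 1.18.

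**Figure D3:**
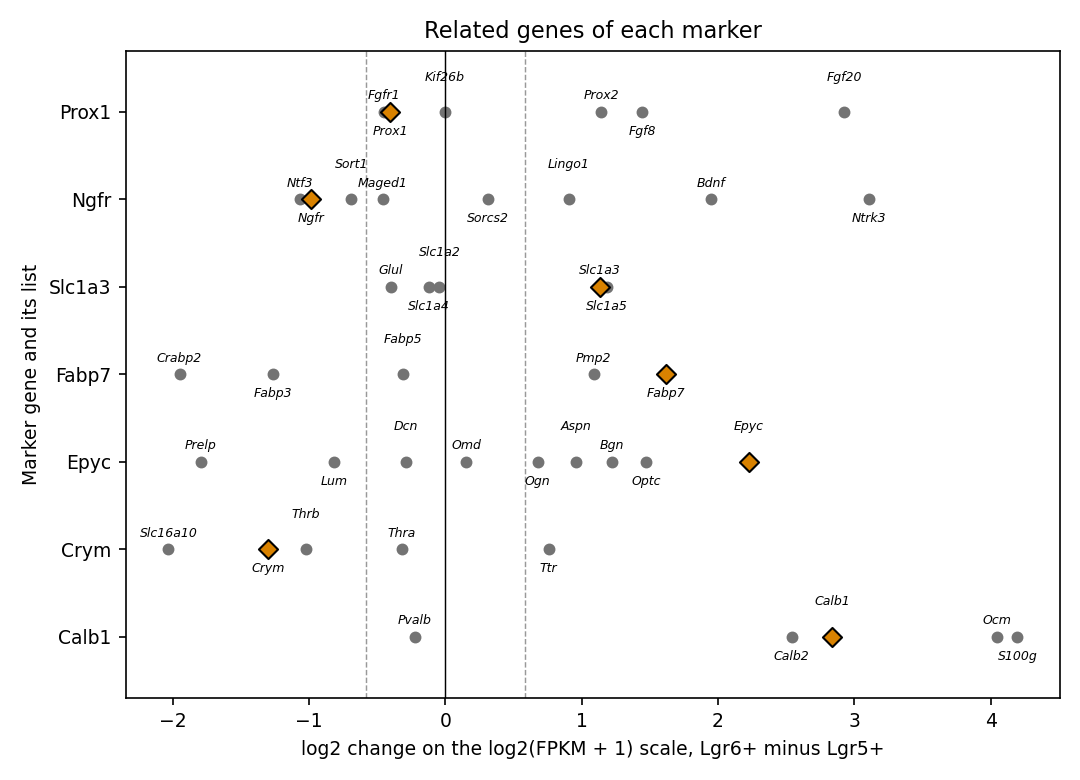
Log2 change on the log2(FPKM + 1) scale, Lgr6+ minus Lgr5+, of each marker (orange diamonds) and of the kept genes named here as related to it by family or pathway (grey circles), in 1 row per marker; dashed lines mark 1.5-fold. The calcium buffer genes *Calb2*, *Ocm* and *S100g* lie on the side of *Calb1*, *Thrb* and *Slc16a10* on the side of *Crym*, and *Lum* and *Dcn* opposite *Epyc*.

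Genes of cell types that share these markers also differed between the populations. HC genes were present in both, and 6 of 7 passed 1.5-fold toward Lgr6+ progenitors, as 28.5% of all kept genes did. The 7 genes had a summed FPKM of 160 in Lgr5+ and 631 in Lgr6+ progenitors. *Otof*, which encodes the HC synaptic protein otoferlin, had 41.6 and 171, *Myo7a* had 19.3 and 47.0, and the HC fate gene *Atoh1* had 30.9 and 36.4. Cells were sorted for EGFP from reporters of SCs. For cells sorted this way, the paper reported no Myo7a staining and Sox2 staining in nearly all. It also reported lower mRNA of the HC marker Brn3.1 than in the EGFP-negative cells. The values of the HC genes moved with *Calb1* and *Calb2*, which HCs also express, and the part of HCs in the result was not tested. *Ocm* is in both the HC list and the list for *Calb1*.

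Of 10 genes of Schwann cells and satellite glia, which can express *Fabp7*, *Slc1a3* and *Ngfr*, 7 were kept. Of these, 4 passed 1.5-fold toward Lgr6+ progenitors and 1 toward Lgr5+ progenitors, *Egr2*, with 62.5 and 19.7. Over all kept genes the shares were 28.5% and 23.3%. Of the 7 genes, 2 were kept only through Lgr6+ progenitors. The summed FPKM was 137 in Lgr5+ and 285 in Lgr6+ progenitors. The myelin genes *Pmp22* and *Mbp* had 0.784 and 10.7 in Lgr5+ progenitors and 64.5 and 67.4 in Lgr6+ progenitors. *Pmp22* was kept only through Lgr6+ progenitors. It is listed over a long interval on chromosome 11, from 62951193 to 63386069, so its value is less certain. *Erbb3* had 0.304 and 0.209, and *Foxd3* was listed at 0 and *Cdh19* at 0.147 in Lgr6+ progenitors. *Sox10*, which is also among the general SC genes above, differed by less than 1.5-fold. *Ngfr* had the lower value in Lgr6+ progenitors, a direction set by the filter. The part of glia in the values of *Fabp7*, *Slc1a3* and *Ngfr* was not tested.

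Of 6 fibrocyte and mesenchyme genes, 4 passed 1.5-fold toward Lgr6+ progenitors. Over all kept genes the shares were 28.5% toward Lgr6+ and 23.3% toward Lgr5+ progenitors. The 6 genes had a summed FPKM of 49.0 in Lgr5+ and 394 in Lgr6+ progenitors. Most of the latter came from *Otos*, a gene of fibrocytes, which had 5.60 and 248. All 5 kept macrophage genes and all 4 endothelial genes also passed 1.5-fold toward Lgr6+ progenitors, with sums of 1.12 and 178 and of 1.97 and 24.3. All 5 of these macrophage genes and 3 of the 4 endothelial genes were kept only through Lgr6+ progenitors, so the counts say little beyond the levels. In Lgr5+ progenitors 4 genes of the macrophage list and 1 of the endothelial list were listed at 0. Fibrocytes express *Slc1a3* and *Crym*, of which *Slc1a3* went with *Otos* and *Crym* against it. Of 7 genes of spiral ganglion neurons, 2 passed 1.5-fold in each direction and 1 was kept only through each population. The other 3 differed by less than 1.5-fold. *Isl1* had 233 and 117, and the neuronal tubulin gene *Tubb3* had 1.18 and 0.0959. The sums were 330 and 206, and most of each came from *Isl1*. No gene of the melanocyte list reached an FPKM of 1. Whether these cell types contributed to the values of the SC markers was not tested.

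**Figure D4:**
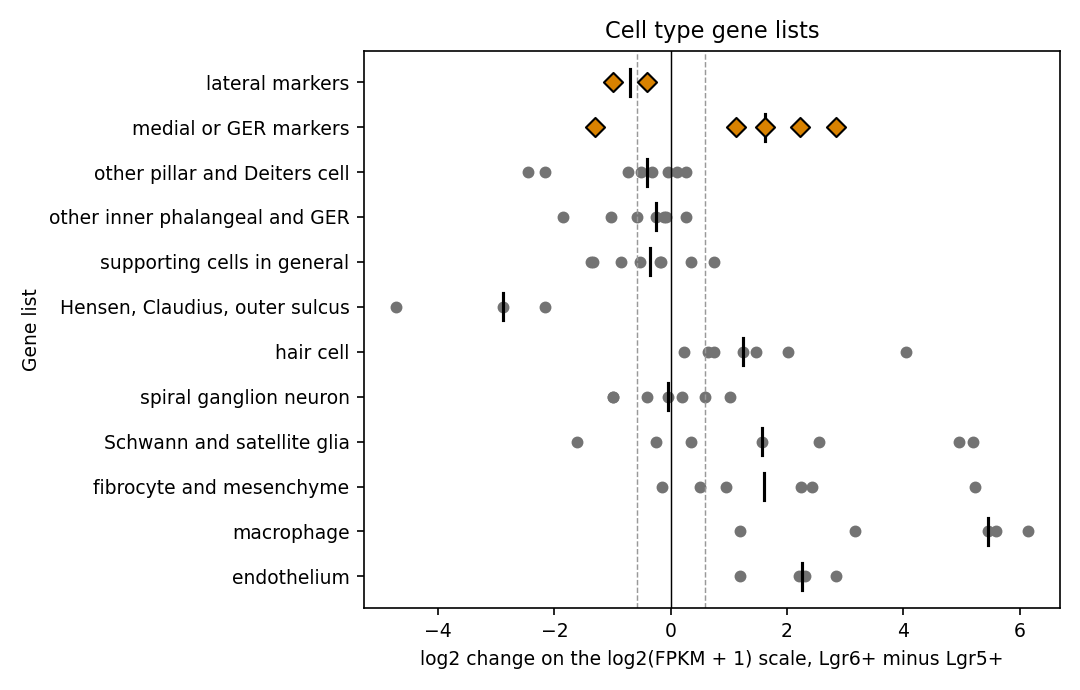
Log2 change on the log2(FPKM + 1) scale, Lgr6+ minus Lgr5+, of every kept gene in 12 lists, with the 7 markers as orange diamonds, other genes as grey circles and the median of each list as a black bar; dashed lines mark 1.5-fold. The medial or GER markers lie mostly to the right of the other SC lists, on the side where the hair cell, glia, fibrocyte, macrophage and endothelial lists lie.

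The gene nearest to each marker was found by the distance between pairs of log2(FPKM + 1) values over the 2 populations. The nearest gene to *Epyc* was *Calb2*, at a distance of 0.25. The nearest to *Calb1* was *Grp*, which had an FPKM of 33.2 in Lgr5+ and 179 in Lgr6+ progenitors, at a distance of 0.48. For *Fabp7* it was *Acbd7*, with 394 and 1246, at a distance of 0.22. No gene lay within 0.1 of these 3 markers, and 28 genes lay that close to *Prox1*, 13 to *Ngfr*, 12 to *Slc1a3* and 2 to *Crym*. The nearest genes to these 4 were, in that order, *Engase*, *Foxo4*, *Acsl4* and *1810043H04Rik*. With 2 values per gene, such likeness describes a level and a difference only.

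The depth behind the values was read from the steps of low FPKM values, because fragments are counted whole. FPKM was multiplied by transcript length in kb, less 200 bases, for 6908 genes with 1 annotated transcript. In Lgr5+ progenitors 88 products piled up at 0.128, against 10.5 in stretches of equal width beside it. In Lgr6+ progenitors 29 piled up at 0.0402, against 11.5. The place of each step was searched for as the one with the greatest excess over its sides. Some excess would therefore be found by the search alone. If such a step is 1 fragment, the Lgr6+ values rest on the greater depth. On that reading *Ngfr* rested on about 51.6 fragments in Lgr5+ and 42.9 in Lgr6+ progenitors, and *Prox1* on 188 and 428. The other 5 markers rested on 395 to 4254 fragments in Lgr5+ and on 2878 to 24984 in Lgr6+ progenitors. On that reading the lateral markers rested on the fewest fragments of the 7 markers within each population, and the spread between replicates is not known. It was not tested whether a step stands for a fragment in a single library or for part of one after averaging, and PCR copies count as fragments here.

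**Figure D5:**
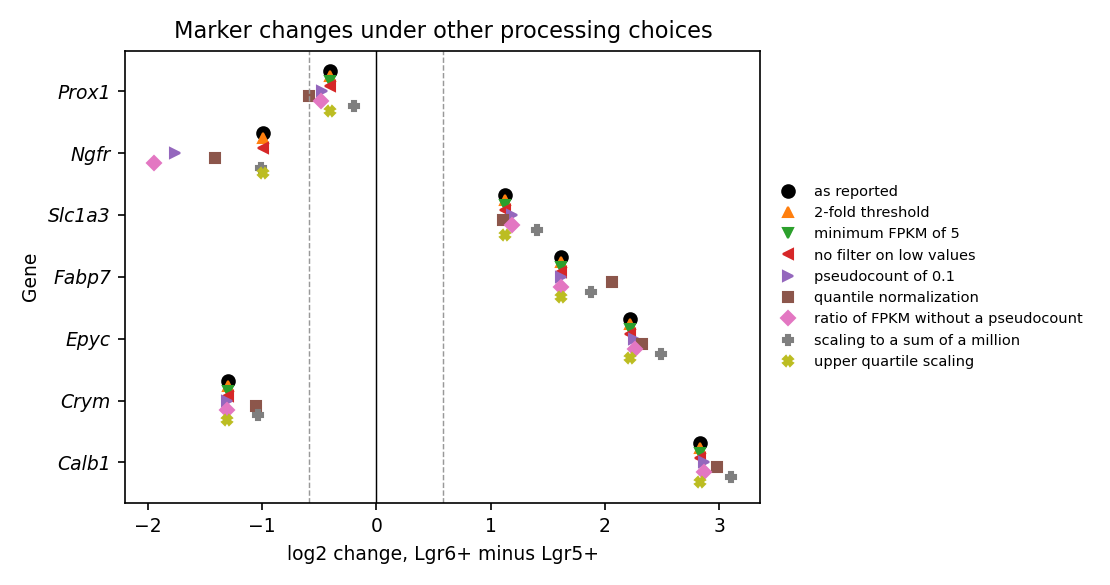
Log2 change, Lgr6+ minus Lgr5+, of each marker as reported (black circles) and under 8 other processing choices (coloured symbols); dashed lines mark 1.5-fold. No marker changes sign, *Prox1* stays within 1.5-fold except under quantile normalization, and *Ngfr* moves the most.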

How the data were processed

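RNA-Seq of sorted Lgr5+ and Lgr6+ cochlear cells was used. Per the methods, a SMART-Seq low-input kit made the libraries and genes followed RefGene. Trimmomatic, TopHat and Cufflinks are named per the labels, and their versions are not given in the sources used here. The authors deposited FPKM values, combined over the replicates of each population. The table also holds their fold changes, *p*-values and *q*-values, which were not used. The labels name mm10 and the methods mm9. Of 19655 gene intervals, 99.1% overlapped the gene in GRCm38 and 12.8% in NCBIM37, so positions are given as GRCm38 with starts counted from 1.

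A gene was kept when its FPKM reached 1 in either population, and a pseudocount of 1 and a threshold of 1.5-fold were used. No test was run, since there was 1 value per population. Markers and gene lists were chosen with earlier results of these data known. Named genes were the markers, the sorting genes, the highest and most changed genes of each list, the relatives of each marker and the gene nearest to it. *Gm10754*, *Ccer1*, *Prox1os* and the genes given for contrast were named after their values or positions were seen. Some genes counted in the lists are not reported here by name. Transcript lengths came from GENCODE M1 and promoters from RefSeq. Python 3.11.15, numpy 2.4.6, pandas 2.3.3 and matplotlib 3.10.9 were used, and the calculations were tested on simulated data. The alternatives were another pseudocount, other filters, 3 scalings, a 2-fold threshold and a plain ratio.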

Additional observations from a re-analysis of the deposited data

How the results depend on the processing

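No paired analysis was possible because the table holds 1 combined value per population, and leaving out each replicate was not run for the same reason. Under the 8 alternatives the log2 change of *Calb1* ran from 2.83 to 3.11, of *Epyc* from 2.22 to 2.50, of *Fabp7* from 1.62 to 2.07, of *Slc1a3* from 1.11 to 1.40 and of *Crym* from -1.30 to -1.04, all on the side of the 1.5-fold threshold reported. *Ngfr* had -1.76 with a pseudocount of 0.1 and -1.94 as a ratio of FPKM without a pseudocount, since its low values are damped by the added 1. *Prox1* had -0.59 after quantile normalization, which put both lateral markers, 2 of 2, past the threshold. With a minimum FPKM of 5 *Ngfr* was not kept, the lateral median was -0.41 and 0 lateral markers passed, and 0 passed at 2-fold. Scaling both populations to the same sum of FPKM moved the median of all kept genes from 0.03 to 0.28 and the share of genes past the threshold that were higher in Lgr6+ progenitors from 55.0% to 69.0%. Under it *Prox1* had -0.19, and no marker changed sign with the shift taken off. Among values of other genes and lists, 63 of the alternative values moved by more than 1.5-fold or crossed the threshold, 745 did not and none changed direction after passing it. With 1 value per population no error is given for any marker. If a step is 1 fragment, *Ngfr* and *Prox1* rest on the fewest fragments within each population.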

Other observations

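A list of 4 genes of Hensen's and Claudius' cells and of the outer sulcus, on the lateral side of the cochlear duct, held 3 kept genes. *Bmp4*, the signal of the lateral cochlear duct, had an FPKM of 35.7 in Lgr5+ and 3.96 in Lgr6+ progenitors, with a log2 change of -2.89. *Gata2* had 52.4 and 11.0, a log2 change of -2.16. The water channel gene *Aqp5* had 25.5 and was listed at 0 in Lgr6+ progenitors. *Aqp5* was kept only through its Lgr5+ value. *Aqp4* was under an FPKM of 1 in both, at 0.0241 and 0.268. All 3 kept genes passed 1.5-fold toward Lgr5+ progenitors, as 23.3% of all kept genes did. The difference of *Bmp4* was 9.02-fold as a ratio of FPKM, against 1.40-fold for *Prox1*.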
